A study of Mus musculus with 28 samples.

Results

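Smooth muscle cells contract by sliding actin and myosin filaments that are anchored at dense bodies and dense plaques. Their contractile genes, among them Acta2, Myh11, Tagln and Cnn1, are switched on by serum response factor (SRF) together with myocardin, which act through a promoter element called the CArG box. Vascular smooth muscle and pericytes wrap blood vessels and are known as mural cells, which express Notch3, Pdgfrb and Rgs5. Smooth muscle in an ovary is also known from the theca externa of growing follicles, from the stroma and from the ligaments that hold the ovary. The barcodes described here carry the contractile programme of smooth muscle, but the genes of vascular mural cells were low in them. Most of them also carried genes of the ovarian stroma and of the gonad.

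The barcodes came from 4 single-cell RNA libraries of mouse ovaries, and were selected because at least 1000 genes were detected, at most 20% of the unique molecular identifiers (UMIs, each 1 captured RNA molecule) were mitochondrial, at least 3 of the smooth muscle genes Myh11, Cnn1, Actg2, Lmod1 and Synpo2 were detected, and fewer than 3 of the pericyte genes Rgs5, Higd1b, Ndufa4l2, Vtn and Kcnj8. Of 40594 deposited barcodes 38274 passed the gene and mitochondrial limits, and 1373 of these met the rule, which is 3.59%. Each library was 1 pool of ovaries from 4 females aged 7 days, either wild-type (WT) C57BL/6J or Chek2-/-, taken 6 h after sham treatment (nonIR) or after 0.5 Gy of whole-body gamma radiation (IR). The Chek2-/- females carry the tm1b(EUCOMM)Hmgu allele in every cell of the body and not in smooth muscle alone. A second set of 24 whole-ovary RNA libraries, 6 for each of the same 4 groups at 7 to 9 days of age, was not used to choose the barcodes and carries every test reported. With 1 pooled library per single-cell condition there is no test between conditions, and all single-cell intervals are 95% intervals that cover counting error only. CHEK2 is a DNA damage checkpoint kinase that activates p53 after DNA breaks, and the design asks which responses to radiation need it.

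Chek2 itself, ENSMUSG00000029521, separated the genotypes in every whole-ovary library. Its level was 22.4 ± 1.66 CPM (counts per 1000000 of a library, mean ± SD, n = 6) in WT nonIR, with libraries from 19.8 to 24.6, and 21.1 ± 1.98 in WT IR. It was 3.75 ± 0.545 in Chek2-/- nonIR and 3.96 ± 0.526 in Chek2-/- IR, where the highest library had 4.53. In the smooth muscle barcodes described next, Chek2 was counted 38, 34, 10 and 21 times in WT nonIR, WT IR, Chek2-/- nonIR and Chek2-/- IR. The sources do not say where the deleted part lies relative to these reads, so the remaining Chek2 reads do not measure remaining protein.

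The rule found 409 barcodes in WT nonIR, 338 in WT IR, 298 in Chek2-/- nonIR and 328 in Chek2-/- IR. These were 4.23% (exact Clopper-Pearson interval 3.84 to 4.65), 3.27% (2.93 to 3.63), 3.28% (2.92 to 3.66) and 3.58% (3.20 to 3.98) of the kept barcodes of their libraries. WT nonIR had the highest share, and its interval did not meet those of WT IR and Chek2-/- nonIR. After each barcode was thinned to 3000 UMIs the shares were 2.55%, 1.94%, 1.75% and 2.02%, with 84, 343, 40 and 61 kept barcodes too shallow to enter. No barcode sequence was shared by the members of different libraries except 1, between WT IR and Chek2-/- IR, while 16 to 36 were shared by the kept barcodes of each library pair.

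Not all members were alike, and 3 subsets were separated after the values were seen. The first held 108 barcodes in which at least 3 of the oocyte genes Dppa3, Sycp3, Dazl, Zp3 and Gdf9 were detected. There were 52, 18, 15 and 23 of them in WT nonIR, WT IR, Chek2-/- nonIR and Chek2-/- IR, with median depths of 226600, 290000, 227200 and 235500 UMIs. They held 67.6%, 53.8%, 48.4% and 50.8% of all UMIs of the members, so a sum over all 1373 barcodes is in large part oocyte RNA. Only 7, 1, 0 and 3 of them had 100 or more UMIs of contractile genes per 10000. At such depth a few UMIs of 3 rule genes are enough to meet the rule, and 8.78%, 7.50%, 12.6% and 7.96% of all oocyte-marker barcodes of the 4 libraries did. The other 1265 barcodes are called smooth muscle barcodes from here on.

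The smooth muscle barcodes numbered 357, 320, 283 and 305 in WT nonIR, WT IR, Chek2-/- nonIR and Chek2-/- IR. Their shares of kept barcodes were 3.69% (3.33 to 4.09), 3.09% (2.77 to 3.44), 3.11% (2.77 to 3.49) and 3.33% (2.97 to 3.71), and all 4 intervals overlapped. Median depth was 11720, 11550, 11210 and 12280 UMIs, so the libraries were close in depth for these cells. Among them 450 had all 5 rule genes, 507 had 4 and 308 had 3, and 650 kept barcodes lay just outside the rule with 2 genes. None of the 5 pericyte genes was detected in 1100, 1 in 146 and 2 in 19. The doublet caller Scrublet marked 95 of them, and marked barcodes were kept. These were 24 of 357, 31 of 320, 21 of 283 and 19 of 305, beside 4.02%, 5.47%, 4.33% and 4.37% of all kept barcodes. The marked share was thus higher in the smooth muscle barcodes of each library.

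The second subset was a group of 56 barcodes with at least 500 CPM of Des and under 300 CPM of Mfap5, here called Des-high, where CPM in single cells are UMIs of a gene per 1000000 UMIs of a barcode or class. Des encodes desmin, the intermediate filament of muscle, and Mfap5 a microfibril protein of the extracellular matrix. Of these, 48 were in WT nonIR, 1 in WT IR, 3 in Chek2-/- nonIR and 4 in Chek2-/- IR, or 13.4% (10.1 to 17.4), 0.312% (0.00791 to 1.73), 1.06% (0.219 to 3.07) and 1.31% (0.358 to 3.32) of the smooth muscle barcodes. Thus 1 library held almost the whole group, and whether it marks the sham condition, the tissue dissected or that pool cannot be told apart. The third subset held 119 barcodes that carried 3 or more of the granulosa genes Amhr2, Inha, Inhbb, Amh and Fst, with 26, 38, 25 and 30 per library. Their median depths were 36800, 28920, 31390 and 37380 UMIs, above the 11080, 11040, 10980 and 11880 of the core barcodes named next. Scrublet marks were not counted apart for this subset, and whether its barcodes hold RNA of more than 1 cell was not tested. The remaining 1090 barcodes, 283, 281, 255 and 271 per library, are called core barcodes, and each result that the subsets moved is given for both.

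**Figure D1:**
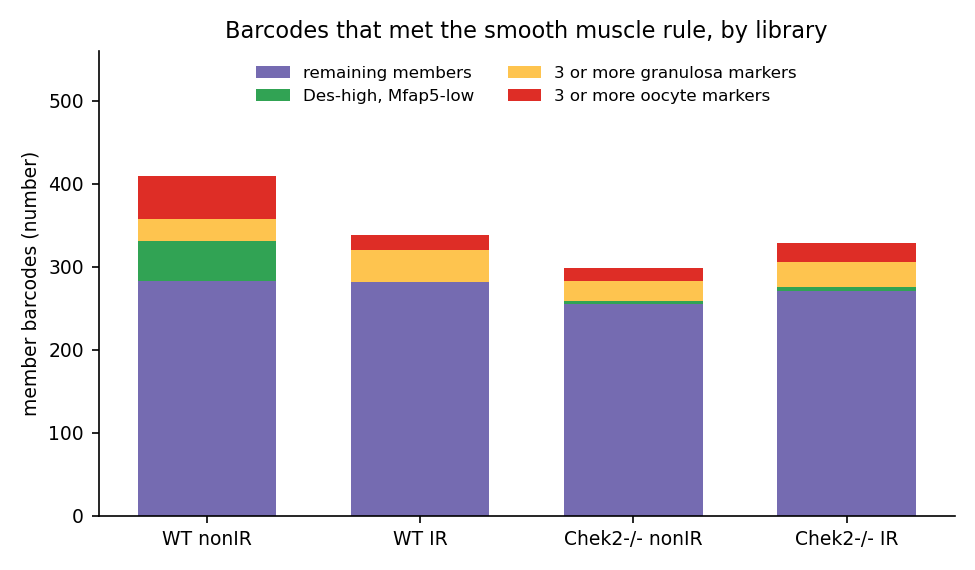
Number of barcodes that met the rule in each single-cell library (y axis, barcodes), stacked by subset: remaining core barcodes, Des-high, granulosa-marker and oocyte-marker barcodes. WT nonIR holds 48 of the 56 Des-high and 52 of the 108 oocyte-marker barcodes.

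The contractile apparatus was the leading feature of the smooth muscle barcodes, which the rule made certain for its own 5 genes and not for Acta2, Tagln or the others. Acta2, smooth muscle alpha-actin, stood at 8668, 7920, 8443 and 8115 CPM in WT nonIR, WT IR, Chek2-/- nonIR and Chek2-/- IR. In the pooled pericyte-rule barcodes (722, chosen by 3 or more of the 5 pericyte genes with fewer than 3 rule genes) it was 898, in 18449 fibroblast-marker barcodes 430 and in 10384 granulosa-marker barcodes 16.8. The fibroblast-marker class had 3 or more of 5 fibroblast genes, named below, and the granulosa-marker class 3 or more granulosa genes. Both were limited to fewer than 3 rule, pericyte and oocyte genes, and to fewer than 3 genes of each other's list. Tagln, the actin-binding transgelin, was at 4495, 3657, 4103 and 3616 CPM, against 454 in pericyte-rule and 244 in fibroblast-marker barcodes. Both genes were therefore far above either neighbouring class in all 4 libraries. Acta2 was found in 1265 of 1265 barcodes and Tagln in 99.7%, while 83.2% and 67.6% of pericyte-rule, 71.8% and 52.6% of fibroblast-marker and 26.6% and 9.10% of the deeper granulosa-marker barcodes had a UMI of them.

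Myosin, its light chains and its kinase showed the same order. Mylk, the kinase that starts contraction by phosphorylating myosin light chain, stood at 1930, 1608, 1626 and 1669 CPM, against 290 in pericyte-rule and 235 in fibroblast-marker barcodes. Myl9, that light chain, was at 1509, 1166, 1324 and 1318, against 836 and 340. The tropomyosin gene Tpm2 was at 2315, 1886, 1781 and 1796, against 576 and 311. Cald1, caldesmon, was the exception among these, with 1212, 999, 1072 and 1020 CPM and 1585 in pericyte-rule barcodes. Of the rule genes, Myh11, smooth muscle myosin heavy chain, was at 1041, 677, 684 and 685, against 90.7 in pericyte-rule and 10.0 in fibroblast-marker barcodes. Cnn1, calponin, stood at 664, 434, 486 and 414, against 0.454 and 2.30, and Lmod1, the actin nucleator leiomodin, at 238, 197, 219 and 219, against 34.3 and 3.32. The comparison classes were limited to fewer than 3 rule genes, so selection fixed these rule gene differences in part and they are a description.

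Other genes that stood out had no part in the rule. Tnnt2, the troponin T of heart muscle, was at 158, 116, 111 and 128 CPM, against 1.14 in pericyte-rule and 1.18 in fibroblast-marker barcodes, and had a UMI in 47.6% of the smooth muscle barcodes against 0.568% of granulosa-marker barcodes. Of the other genes of striated muscle, Actc1 was at 2.10, 0, 1.26 and 6.23, found in 14 barcodes, and Acta1 at 0.757 or less. Myocd, the myocardin that drives SRF at contractile genes, was at 114, 91.9, 110 and 109, against 2.73 in pericyte-rule and 6.49 in fibroblast-marker barcodes. Asb2, a ubiquitin ligase subunit that acts on filamins, was at 44.0, 36.4, 37.8 and 37.8, against 0.328 in fibroblast-marker barcodes. Kcnmb1, the smooth muscle subunit of the large calcium-activated potassium channel, was at 24.9, 21.9, 29.8 and 21.9, against 7.15 and 1.04. Ramp1, a part of the receptor for the vasodilator CGRP, was at 187, 171, 189 and 155, against 8.06 in pericyte-rule and 2.74 in fibroblast-marker barcodes. None of the differences from other classes was tested, because the genes and the cells come from the same counts that the rule used.

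Promoter sequences are shown for the genes of the contractile and dense body lists in which the strict CArG box, the SRF element named at the start, was found, because these are the genes whose transcription SRF and Myocd are known to drive. RefSeq promoters of build GRCm38.p6 were searched over the 250 bases before the transcription start. Of 30 genes 24 were in the table, and 5 of these held a box, or 20.8%, beside 482 of all 32851 promoters, or 1.47%. Each window is 30 bases long and is written 5′ to 3′ on the gene's strand, with the box in capitals. The windows are Fhl1 at chrX:56779571-56779600 (plus strand, box starting 102 bases upstream), Fhl2 at chr1:43196838-43196867 (minus, 96), Ldb3 at chr14:34588697-34588726 (minus, 35), Myl9 at chr2:156775293-156775322 (plus, 161) and Vcl at chr14:20929161-20929190 (plus, 227).
Fhl1: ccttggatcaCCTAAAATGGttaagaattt
Fhl2: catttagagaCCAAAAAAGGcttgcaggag
Ldb3: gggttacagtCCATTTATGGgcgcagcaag
Myl9: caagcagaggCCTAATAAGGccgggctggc
Vcl: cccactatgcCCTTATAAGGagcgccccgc
The 5 genes differed in how far they marked the smooth muscle barcodes. Fhl1, a LIM domain protein, was at 228, 212, 266 and 224 CPM against 14.0 in pericyte-rule and 8.47 in fibroblast-marker barcodes, while its relative Fhl2 was at 204, 218, 227 and 218 against 256 and 228. Ldb3, a Z-disc protein of striated muscle, had 41 UMIs in all smooth muscle barcodes. Vcl was at 184, 138, 151 and 149 against 122 and 53.2. In these windows a match is a description of letters and not of a bound site, and Acta2, Cnn1, Lmod1 and Synpo2 had no such match within 250 bases. Des, which had a UMI in 41.9% of the smooth muscle and 87.3% of the pericyte-rule barcodes, had none either.

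**Figure D2:**
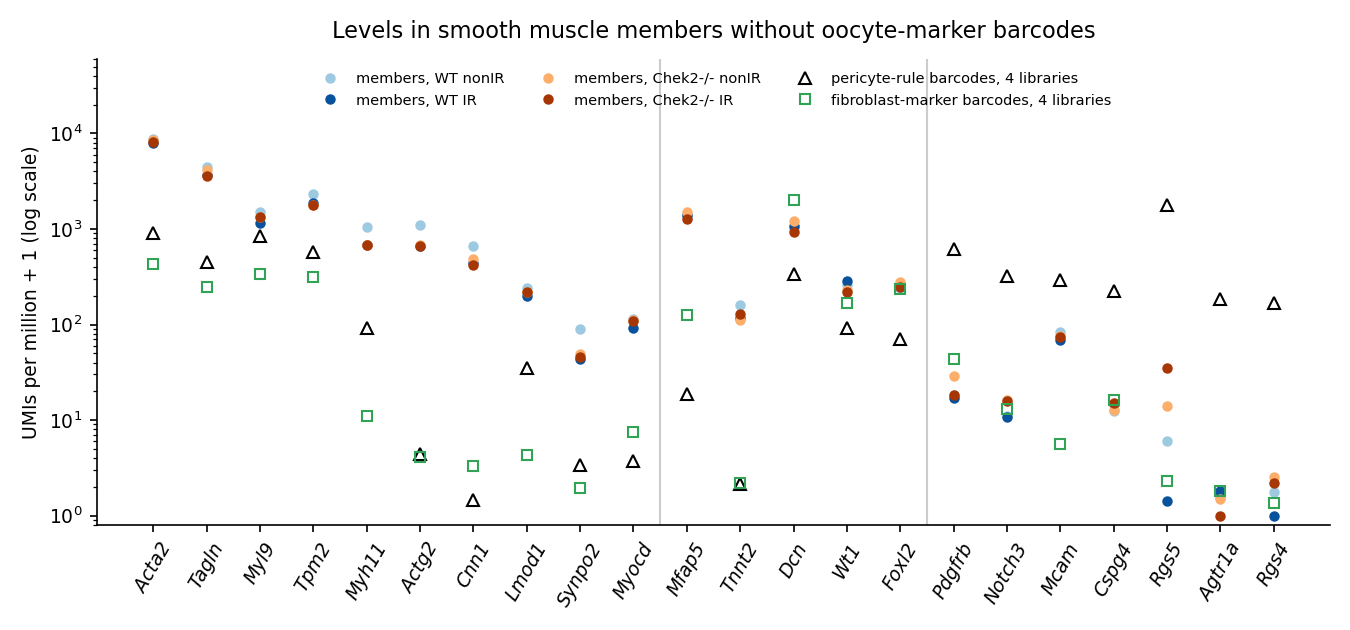
CPM with 1 added (log axis) of selected genes in the smooth muscle barcodes of each of the 4 libraries, with pericyte-rule barcodes as triangles and fibroblast-marker barcodes as squares. Contractile genes lie above both comparison classes, while Notch3, Pdgfrb, Rgs5 and Rgs4 lie below the pericyte-rule triangles.

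Genes of vascular mural cells did not follow. Notch3, the Notch receptor of arterial smooth muscle, was at 9.94, 9.73, 15.1 and 14.9 CPM in WT nonIR, WT IR, Chek2-/- nonIR and Chek2-/- IR, against 320 in pericyte-rule and 12.2 in fibroblast-marker barcodes. Pdgfrb, the receptor that recruits mural cells to vessels, was at 17.2, 16.1, 28.0 and 17.1, against 613 and 42.3. Cspg4, also called NG2, was at 11.5, 13.7, 11.9 and 14.1, against 222 and 15.3. The smooth muscle barcodes were thus near the fibroblast-marker class for Notch3 and Cspg4 and below it for Pdgfrb, and far below the pericyte-rule class for all 3. Agtr1a, an angiotensin receptor, had 9 UMIs in all 1265 barcodes and 1601 in the 722 pericyte-rule barcodes, and Rgs4, a brake on receptor signalling, was at 1.51 or less against 165. Mcam was intermediate, with 83.0, 67.3, 75.7 and 72.6 against 289 in pericyte-rule and 4.67 in fibroblast-marker barcodes. Rgs5, one of the genes the rule limited, had a UMI in 2.29% of the smooth muscle barcodes (1.54 to 3.28) and in 1.74% of the granulosa-marker barcodes (1.5 to 2.01). After thinning it was found in 0.840%, 0%, 1.41% and 2.30% of the smooth muscle and in 0.182%, 0.265%, 0.354% and 0.0686% of the granulosa-marker barcodes of WT nonIR, WT IR, Chek2-/- nonIR and Chek2-/- IR. The intervals overlapped except in Chek2-/- IR, where they were 0.931 to 4.69 and 0.00831 to 0.248. The rule limited the share of barcodes with Rgs5, so these values are a description and nothing is read from them.

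The nitric oxide receptor genes and Abcc9 were low as well, whereas Kcnmb1, given above, was higher than in pericyte-rule barcodes. Gucy1a1 and Gucy1b1, the subunits of the nitric oxide receptor, were at 54.3 to 73.7 and 7.87 to 15.1 CPM, against 479 and 233 in pericyte-rule barcodes. Abcc9, the regulatory subunit of the vascular ATP-sensitive potassium channel, was at 6.62 to 13.4, against 258. Among receptors, Ednrb, an endothelin receptor, was at 95.6, 71.0, 73.9 and 104, against 76.3 in pericyte-rule and 3.62 in fibroblast-marker barcodes. Oxtr, the oxytocin receptor of the myometrium, had 2 UMIs in all smooth muscle barcodes. The genes of these cells bear out the words smooth muscle in their name, while the mural genes were low beside the pericyte-rule class. The rule limited pericyte genes and that class was chosen by them, so selection can have set part of this difference. Another 46 barcodes met both rules and are in neither class. Their mural list summed to 486.4, 530.5, 971.5 and 820.4 CPM in WT nonIR, WT IR, Chek2-/- nonIR and Chek2-/- IR. In smooth muscle barcodes it summed to 196.3, 155.5, 200.3 and 185.1. Oocyte markers in the 46 summed to 5232 to 11780. Whether the smooth muscle barcodes are perivascular was not tested, and no measurement here places them next to a vessel.

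Stromal and gonadal genes were present in nearly all of these barcodes. At least 3 of the fibroblast genes Dcn, Pdgfra, Lum, Col1a1 and Mfap4 were detected in 96.9%, 97.2%, 96.5% and 96.7% of the smooth muscle barcodes of WT nonIR, WT IR, Chek2-/- nonIR and Chek2-/- IR. This list summed to 3626, 3565, 3941 and 3359 CPM in the same order. Foxl2, the transcription factor that maintains ovarian identity, stood at 240, 252, 281 and 244 CPM and had a UMI in 88.8% of barcodes, against 20.2% of pericyte-rule barcodes. Wt1, a transcription factor of the gonad and its stroma, was at 255, 285, 226 and 220 and had a UMI in 87.4%, against 25.8% of pericyte-rule barcodes. In both transcription factor genes the smooth muscle barcodes were nearer to the fibroblast-marker class (Foxl2 236 and Wt1 166 CPM) than to the pericyte-rule class (70.3 and 90.8 CPM). Foxl2 and Wt1 had a UMI in 96.6% and 97.8% of granulosa-marker and in 85.6% and 79.8% of fibroblast-marker barcodes. They are thus genes of the gonad and do not mark its stroma alone. Mfap5 was at 1332, 1402, 1495 and 1270, against 17.9 in pericyte-rule and 125 in fibroblast-marker barcodes, so it set them apart from both. The posterior Hox genes Hoxd9 (186, 198, 177 and 132) and Hoxd10 (34.0, 38.5, 42.6 and 32.4) were present as well.

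Markers of some other cells were scarce and those of others were not. Summed over each list of 5, macrophage markers ranged from 0.201 to 3.78 CPM over the 4 libraries and oviduct epithelium markers from 0.574 to 2.41, and 0 or 1 smooth muscle barcode per library had 3 or more macrophage genes. Erythroid markers, the haemoglobin genes among them, summed to 1115, 1136, 5693 and 1864 CPM in WT nonIR, WT IR, Chek2-/- nonIR and Chek2-/- IR, and in Chek2-/- nonIR this came near the 6213 of the 6 smooth muscle markers. There 18 of 283 barcodes had 3 or more erythroid genes, and 1 barcode gave 36.4% of the Hbb-bs, 44.8% of the Hba-a1, 46.9% of the Hba-a2 and 63.2% of the Hbb-bt UMIs. Granulosa markers summed to 306, 447, 389 and 486, and 7.56%, 11.9%, 8.83% and 9.84% of the barcodes had 3 or more of them. Schwann cell markers summed to 159, 256, 288 and 169, and theca and steroid markers to 65.4, 107, 104.7 and 104.3. Oocyte markers summed to 51.8, 19.5, 21.2 and 24.5, endothelial markers to 162, 48.2, 56.3 and 45.4, and surface epithelium markers to 71.3, 273, 128 and 92.9. In WT nonIR the endothelial gene Cldn5 came from 5 barcodes, of which 1 gave 49.1% of its UMIs, and in WT IR 1 barcode gave 88.8% of the UMIs of the epithelial keratin Krt19 and 96.1% of those of Krt7. The part of these genes in the differences between libraries was not tested.

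The amount of contractile RNA was graded with the number of rule genes detected, which the rule fixed in part. Over 13 contractile genes, 4 of them rule genes, the median was 319, 280, 276 and 283 UMIs per 10000 in the smooth muscle barcodes of WT nonIR, WT IR, Chek2-/- nonIR and Chek2-/- IR. Barcodes with 3 rule genes had 178, 182, 173 and 157, and those with 5 had 398, 352, 377 and 447, an order that the 4 shared genes help to set. The 9 genes outside the rule, summed over each class, stood at 146, 134, 138 and 126 UMIs per 10000 in barcodes with 3 rule genes and at 329, 299, 306 and 351 in those with 5. Barcodes just outside the rule, with 2 rule genes, had 52.9, 63.2, 53.4 and 58.5 of these 9, close to the 61.4, 65.1, 72.9 and 74.6 of pericyte-rule barcodes. Fibroblast-marker barcodes had 38.0 to 41.0 and granulosa-marker barcodes 7.85 to 10.4. The oocyte-marker members had 8.97, 6.85, 5.01 and 8.54, near the granulosa-marker class.

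**Figure D3:**
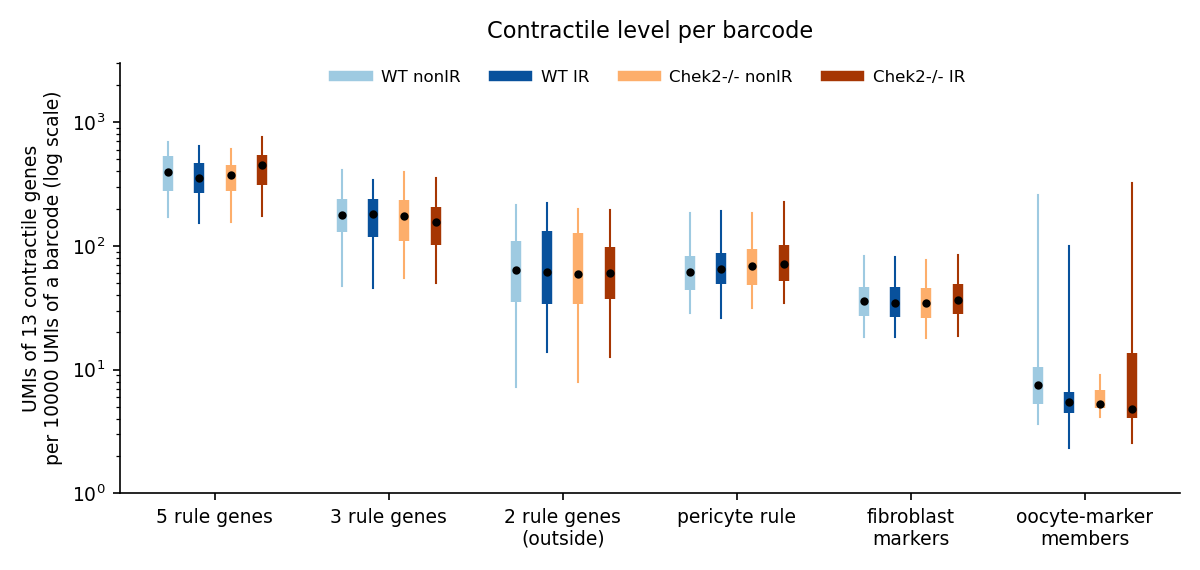
UMIs of 13 contractile genes per 10000 UMIs of a barcode (log axis), by class and library, with the median as a dot, the box from the 25th to the 75th and the whisker from the 5th to the 95th percentile of barcodes. Smooth muscle barcodes with every rule gene detected have medians of 352 to 447, and those with the fewest the rule allows 157 to 182. The fibroblast-marker class has 34.2 to 36.4.

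The Des-high barcodes of WT nonIR carried more contractile RNA than the core barcodes of the same library, with medians of 569 and 299 contractile UMIs per 10000. The 1, 3 and 4 Des-high barcodes of WT IR, Chek2-/- nonIR and Chek2-/- IR had medians of 403, 293 and 789. Actg2, the enteric actin that is common in visceral smooth muscle, was at 4146 CPM against 805 in core barcodes, and the 48 barcodes held 46.6% of all its UMIs in the smooth muscle barcodes of that library. Des was at 2211 against 128, which the selection of the subset fixed. The 5 striated muscle markers summed to 528 CPM against 146, with Tnnt2 at 431 against 138 and Tnnt3, the troponin T of fast skeletal muscle, at 71.9 against 6.13, and at least 3 of the 5 were detected in 5 of 48 barcodes against 0 of 283. Outside the genes that selected them, Rspo3, a Wnt potentiator, was 15.3-fold higher than in core barcodes (326 against 21.2), Aqp1, a water channel, 18.8-fold (96.4 against 5.02) and Pcp4, a calmodulin-binding protein, 26.4-fold (260 against 9.76). The fibroblast markers were uneven in them. At least 3 of the 5 were detected in 44 of the 48 barcodes, and the list summed to 2692 CPM against 4214 in core barcodes. The collagen gene Col1a1 was at 1472 against 1866, Mfap4 at 707 against 875, Dcn at 496 against 1213, Lum at 16.8 against 168 and Pdgfra at 1.53 against 92.3. Among the genes with the lowest ratios, Hoxd9 had 4 UMIs against 873 and Igf1 6 against 937, of 653690 and 3587608 UMIs in all. Foxl2 was at 62.7 against 247, whereas Wt1 was at 249 against 235. Notch3 was at 15.3 against 9.20 and Pdgfrb at 16.8 against 18.4, both far below the pericyte-rule class.

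Targets of p53, the transcription factor that halts or kills damaged cells, set the irradiated WT library apart from the other 3. Of 27 canonical p53 targets, 23 had the 50 UMIs required in the smooth muscle barcodes of the WT libraries, and 16 of these were at least 1.5-fold higher in WT IR than in WT nonIR and 0 at least 1.5-fold lower. Over all genes with enough UMIs, 417 of 10555 were that much higher in WT, or 3.95%, and 714 were past the fold in either direction, or 6.76%. The median log2 ratio of the list was 0.99, beside 0.04 for all genes. In Chek2-/-, 1 of 20 was past the fold upward and 2 downward, with a median of 0.14 beside 0.02 for all genes, where 427 of 10248 genes, or 4.17%, were higher and 689, or 6.72%, were past it in either direction. The UMI minimum was applied in each genotype apart, so a gene raised in WT IR could enter in WT alone, and the 2 sets differ. Bbc3, Sesn2 and Tnfrsf10b entered in WT and had 37, 43 and 49 UMIs in Chek2-/-. There Bbc3 and Sesn2 were also past the fold upward, with log2 ratios of 1.061 and 0.848, and Tnfrsf10b was not, with 0.197. In core barcodes 16 of 22 were higher in WT, beside 3.69% of genes, and 4 of 19 in Chek2-/-, beside 4.15%, with medians of 0.89 and 0.21. Those 4 were Cdkn1a, Ccng1, Exoc4 and Psrc1, and Plk2 was past the fold downward, with a log2 ratio of −1.32 from 57 UMIs. The difference between the genotypes was not tested in single cells.

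Cdkn1a, the cell cycle inhibitor p21, was counted 56 times in the smooth muscle barcodes of WT nonIR and 524 times in WT IR, or 10.7 and 109 CPM. In Chek2-/- nonIR and IR it was counted 46 and 81 times, or 11.6 and 16.3 CPM. The ratio was 10.1 (7.68 to 13.6) in WT and 1.397 (0.965 to 2.06) in Chek2-/-, so the WT IR library stood alone among the 4. A Cdkn1a UMI was found in 7.56%, 41.6%, 9.19% and 12.5% of barcodes, and in 3.08%, 21.3%, 2.47% and 4.61% after thinning, with 0 to 5 barcodes left out per library. In core barcodes the WT ratio was 10.6 (7.77 to 15.3) and the Chek2-/- ratio 1.88 (1.24 to 2.95).

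Several other targets were also highest in WT IR. Ccng1, cyclin G1, was at 15.7, 58.6, 12.6 and 17.3 CPM in WT nonIR, WT IR, Chek2-/- nonIR and Chek2-/- IR, a ratio of 3.72 (2.91 to 4.84) in WT and 1.37 (0.956 to 1.98) in Chek2-/-. Phlda3, a repressor of AKT, was at 59.5, 158, 67.4 and 70.6, with ratios of 2.66 (2.33 to 3.05) and 1.05 (0.891 to 1.23). Trp53inp1 was at 14.5, 45.3, 18.4 and 17.7, with ratios of 3.11 (2.39 to 4.11) and 0.959 (0.696 to 1.33). In each of the 3, WT IR was the highest library. In core barcodes the Chek2-/- ratio of Ccng1 was past the fold at 1.83 (1.20 to 2.90), from 32 and 69 UMIs, beside 4.37 (3.18 to 6.20) in WT. Mdm2, the ubiquitin ligase that limits p53, was at 33.3, 54.7, 31.8 and 37.4, and its WT ratio was only 1.64 (1.35 to 2.00). Rps27l, Ei24, Exoc4, Aen, Zmat3 and Perp had WT ratios from 1.52 to 2.64, and Sesn2, Ddit4 and Psrc1 ratios of 2.77, 2.05 and 1.56. The 7 tested targets that were not past the fold, Sesn1, Xpc, Plk2, Fas, Tnfrsf10b, Polk and Btg2, had WT ratios of 0.808 to 1.34.

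Of the genes that promote cell death, Bax and Bbc3 were higher in WT IR. Bax, the pore-forming effector of apoptosis, was at 112, 240, 104 and 123 CPM, a ratio of 2.13 (1.93 to 2.36) in WT and 1.19 (1.05 to 1.35) in Chek2-/-. Bbc3, or PUMA, was counted 10, 101, 10 and 27 times, with ratios of 10.5 (5.71 to 23.5) and 2.09 (1.01 to 4.98). Both are p53 targets. Of the rest of the apoptosis machinery, 0 of 19 genes were past the fold in WT, beside 6.76% of genes, and 1 in Chek2-/-, beside 6.72%, shares near the background, and the medians were 0.08 and 0.01 on the log2 scale. Mcl1, which protects cells from apoptosis, was at 158, 180, 144 and 154 CPM and did not separate the irradiated libraries.

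Of the 27 p53 targets, 22 were past the fold upward in WT IR in fibroblast-marker barcodes, beside 3.62% of genes, and 21 in granulosa-marker barcodes, beside 3.26%. In pericyte-rule barcodes 10 of the 19 that could be compared were past it upward, beside 5.21% of genes, and Plk2, a polo-like kinase, was past it downward, at 98.5 and 48.5 CPM in WT nonIR and WT IR. The Cdkn1a ratio was 16.2 (14.55 to 18.02) in fibroblast-marker, 8.47 (5.31 to 15.0) in pericyte-rule and 20.4 (17.6 to 24.1) in granulosa-marker barcodes, so the interval of the smooth muscle barcodes lay below those of the fibroblast-marker and granulosa-marker classes and met that of the pericyte-rule class. Phlda3 had ratios of 2.66 (2.33 to 3.05) in smooth muscle, 1.87 in fibroblast-marker, 1.77 in pericyte-rule and 3.11 in granulosa-marker barcodes. For Bbc3 the log2 ratio was 3.39 in smooth muscle barcodes, from 111 UMIs, beside 2.20, 1.016 and 1.4 in those classes in the same order. Mdm2 had log2 ratios of 0.71, 0.60, 0.87 and 0.64, whereas the 70 oocyte-marker members of the WT libraries, named here because they meet the rule, had a ratio of 11.6. Over all rule barcodes, oocyte-marker ones included, 17 of 26 p53 targets were past the fold upward in WT with a median of 0.89, beside 1696 of 13189 genes (12.9%) past the fold in either direction, and in Chek2-/- the median was 0.04 beside 1020 of 12311 genes (8.29%).

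**Figure D4:**
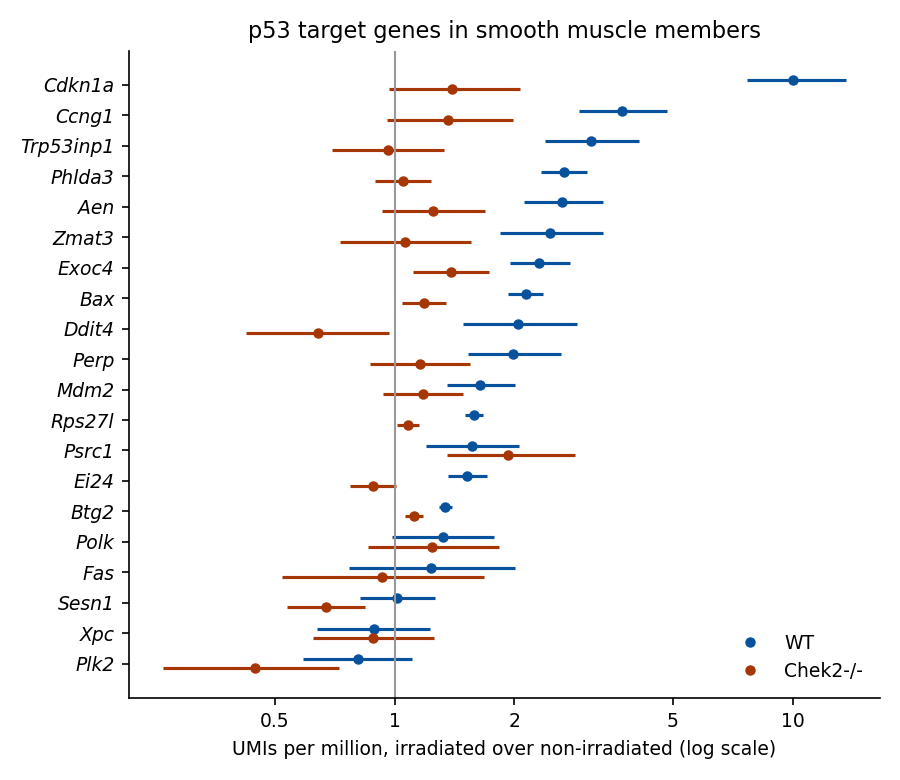
Ratio of CPM in the irradiated to the sham library (log axis) for canonical p53 targets in the smooth muscle barcodes of WT and Chek2-/-, with 95% counting intervals. Cdkn1a has a WT ratio of 10.1, and most of the Chek2-/- intervals drawn reach 1.

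Contractile genes were lower in WT IR than in WT nonIR in the smooth muscle barcodes, and most of that difference went with the Des-high barcodes. Of 13 contractile genes 4 were at least 1.5-fold lower in WT IR, beside 297 of 10555 genes or 2.81%, and 0 were higher, with a median log2 ratio of −0.30. Of these 4, Actg2, with a WT ratio of 0.590 (0.565 to 0.617), Myh11 (0.6497, 0.622 to 0.679) and Cnn1 (0.654, 0.619 to 0.690) are rule genes, whose detection chose the barcodes, so their values are a description only. The fourth, Smtn, the actin-binding smoothelin, is not, and had a ratio of 0.614 (0.536 to 0.701). All 9 contractile genes outside the rule were below 1, from 0.614 to 0.935, with a median log2 ratio of −0.30. Without the Des-high barcodes alone 0 of 13 were past the fold, beside 2.4% of genes lower, and the median of the 9 was −0.11, with 6 of 9 intervals below 1 and 1 above. Without the granulosa-marker barcodes alone 3 of 13 were past the fold, beside 2.64% of genes lower. In core barcodes, which lack both, 0 of 13 were past it and the median of the 9 was −0.07, with 6 of 9 intervals still below 1 and 2 above. There Smtn had 0.806 (0.689 to 0.943) and Tagln 0.9595 (0.939 to 0.981), while Tpm2 had 1.106 (1.072 to 1.142), so these genes no longer shared a direction. The rule gene Myh11 had 0.904 (0.859 to 0.951), given as a description. Acta2 turned in direction, from 0.914 (0.901 to 0.926) in the smooth muscle to 1.04 (1.024 to 1.056) in the core barcodes. In Chek2-/-, 0 of 13 were past the fold in the smooth muscle and in the core barcodes, beside 2.56% and 2.34% of genes lower, with medians of −0.01 and 0.05. Because 48 of the 56 Des-high barcodes are in WT nonIR, leaving them out had to raise the WT ratio of any gene that is high in them, and of Des, which selected them, most of all.

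Of 16 dense body genes, which anchor actin and intermediate filaments, 3 were at least 1.5-fold lower and 0 higher in WT IR in the smooth muscle barcodes, again beside 2.81% of genes. These were Des, which defined the Des-high barcodes, the rule gene Synpo2 and Pdlim3. Without the Des-high barcodes, where 2.4% of genes were lower, and in core barcodes, where 2.23% were, 1 of 16 was. That was Pdlim3, an actin-associated protein with a PDZ and a LIM domain, at 170 and 104.7 CPM in the core barcodes of WT nonIR and WT IR and at 128 and 140 in Chek2-/-. Synpo2 was at 88.9, 42.2, 48.7 and 45.2 in the smooth muscle barcodes and at 65.2, 49.7, 54.9 and 55.0 in the core ones. Vcl, vinculin, was at 184, 138, 151 and 149, a WT ratio of 0.752 (0.680 to 0.830), and at 177, 153, 164 and 169 in core barcodes. Among the regulators, Myocd, Srf, Mef2c, Gata6 and Klf4 stayed within the fold in both genotypes, with 0 of 10 list genes past it, beside 6.76% and 6.72% of genes, which is no result about the regulators.

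In WT, interferon-stimulated genes that were high in the irradiated library lay mostly in the granulosa-marker members. Of 13 such genes 10 were past the fold upward in the smooth muscle barcodes of WT, beside 3.95% of genes, with a median log2 ratio of 1.85. Genes such as Ifit1, Cxcl10 and Isg15 reached the UMI minimum through WT IR, where they were high, so this count and median are not a fair value for the list. In core barcodes 0 of 6 were, beside 3.69%, with a median of 0.13, and without the granulosa-marker barcodes alone also 0 of 6, beside 3.8%. Fewer genes reached the minimum there, so these counts are over smaller sets than the 13. The list of 15 summed to 734 and 1661 CPM in the granulosa-marker members of WT nonIR and WT IR and to 273 and 330 in core barcodes. In WT IR these 38 members held 64.1% of the list's UMIs and 26.2% of all UMIs of the smooth muscle barcodes. Some of the most changed genes also leaned on 1 barcode. Ifit1 was counted 149 times in WT IR and once in WT nonIR, over 17 barcodes of which 1 gave 54.4%. Cxcl10, a chemokine, was counted 293 and 11 times, over 22 barcodes of which 1 gave 67.6%, and the ubiquitin-like Isg15 243 and 22 times, over 17 barcodes of which 1 gave 42.8%. The genes were higher in WT IR outside the members too, with 14 of 15 past the fold in granulosa-marker and 11 of 15 in fibroblast-marker barcodes, beside 3.26% and 3.62% of genes. In Chek2-/- the list summed to 278 and 374 CPM in the core barcodes of nonIR and IR, and the granulosa-marker members held 31.3% and 30.2% of its UMIs. There 3 of 6 genes, Bst2 and Iigp1 among them, were past the fold upward in core barcodes, beside 4.15%, and 0 of 8 in the smooth muscle barcodes, beside 4.17%. In whole ovaries 0 of the 15 were called for radiation in WT or in Chek2-/-, beside 2.41% and 0.0112% of genes. Their median log2 fold changes there were 0.65 and 0.83.

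Barcodes with cell division genes made up a larger share of the irradiated library in each genotype, and whether the intervals overlapped depended on the number of genes required. Barcodes with at least 4 of 8 cell division genes made up 16.8% (13.1 to 21.1), 21.6% (17.2 to 26.5), 11.3% (7.86 to 15.59) and 20.7% (16.25 to 25.6) of the smooth muscle barcodes of WT nonIR, WT IR, Chek2-/- nonIR and Chek2-/- IR. These intervals overlapped in WT and not in Chek2-/-. After thinning, 4 or more were found in 7.003% (4.58 to 10.2), 12.1% (8.68 to 16.2), 5.65% (3.27 to 9.02) and 13.2% (9.57 to 17.5), again with overlap in WT and none in Chek2-/-. With at least 2 of the 8 genes, the thinned shares were 14.6% (11.1 to 18.7), 19.7% (15.4 to 24.5), 11.3% (7.86 to 15.6) and 18.1% (13.9 to 22.9), and the intervals overlapped in both genotypes. In core barcodes of Chek2-/- nonIR and IR, 4 or more genes were found in 7.84% (4.86 to 11.9) and 16.2% (12.05 to 21.2) before and in 3.53% (1.63 to 6.59) and 10.7% (7.31 to 15.1) after thinning, and 2 or more after thinning in 9.41% (6.12 to 13.7) and 14.1% (10.2 to 18.8). The core intervals overlapped only for the last pair of these 3. Mki67, the proliferation marker, was at 118, 170, 67.4 and 201 CPM, a ratio of 1.44 (1.297 to 1.60) in WT and 2.99 (2.61 to 3.44) in Chek2-/-. Chek2-/- nonIR was the low library and Chek2-/- IR the high one. All 8 genes were past the fold upward in Chek2-/-, beside 4.17% of genes, and 5 of 8 in WT, beside 3.95%. In core barcodes all 8 were in both genotypes, beside 4.15% and 3.69%. Fibroblast-marker barcodes had 19.3%, 24.3%, 19.4% and 25.2% by the same measure, so the irradiated library was the higher one of each genotype there as well. These shares are read from counts alone, and no cell cycle phase was assigned. In whole ovaries 0 of the 8 genes were called for radiation in WT or in Chek2-/-, beside 2.41% and 0.0112% of genes. Their median log2 fold changes there were −0.0021 and 0.0295.

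Immediate early genes were lower in the smooth muscle barcodes of the Chek2-/- libraries and, by test, higher in Chek2-/- whole ovaries. Summed over 14 genes they were at 11080, 11030, 7431 and 7950 CPM in WT nonIR, WT IR, Chek2-/- nonIR and Chek2-/- IR, and Fos alone at 2354, 2244, 1385 and 1513. In whole ovaries 8 of the 14 were called higher in Chek2-/- nonIR than in WT nonIR and 0 lower, beside 836 of 26790 genes, 3.12%, called higher, with a median log2 fold change of 0.66. Fos was at 21.6 ± 12.5 CPM (SD, n = 6) in WT nonIR and 56.4 ± 21.3 in Chek2-/- nonIR there, a log2 fold change of 1.38 with an edgeR adjusted p of 0.0208. It was called in 9 of 12 fits that left out 1 library, and lost without WT nonIR 3 (edgeR adjusted p 0.0532) or 4 (0.0558) or Chek2-/- nonIR 2 (0.0519). The direction between the genotypes thus differed between the smooth muscle barcodes and whole ovaries, which are unlike sets of cells prepared in unlike ways. The values of the other single-cell classes are not given, so the lower level is not shown to be particular to the smooth muscle barcodes. The stress chaperone Hspa1a was at 68.8, 56.7, 139 and 51.7, a ratio of 0.373 (0.320 to 0.433) in Chek2-/-. Such genes also respond to the dissociation of tissue at warm temperature, and with 1 library per condition the part of handling was not tested. The matrix and integrin genes were mostly within the fold, with 2 of 16 lower in WT, beside 2.81% of genes, and 1 higher and 1 lower in Chek2-/-, beside 4.17% and 2.56%. Their medians were −0.11 and −0.08. Transcripts of the oocyte, Dppa3 among them, were lower in WT IR core barcodes (88 and 27 UMIs, spread over 71 barcodes in WT nonIR), as were oocyte-marker barcodes in the library, 592 in WT nonIR and 240 in WT IR. Chek2-/- went the other way, with 119 oocyte-marker barcodes in nonIR and 289 in IR, so a sham library had the fewest.

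Whole ovaries gave the tested view of the same genes, and there 1 of 30 contractile and dense body genes rose with radiation in WT. In whole tissue, fewer cells of a type and less RNA per cell cannot be told apart, and most of these genes are expressed in other cells too. Tests were edgeR quasi-likelihood tests with Benjamini-Hochberg adjustment over 26790 genes. The 1 gene of 30 was Vcl, beside 646 of 26790 genes, 2.41%, called in WT IR against nonIR. In Chek2-/- 0 of the 30 were called, beside 3 genes in all or 0.0112%, 3 of the 30 had an unadjusted p under 0.05, beside 1179 of 26790 genes, and DESeq2 also called 0 of the 30. Between the genotypes at nonIR 2 of 30 were called, Vcl upward in Chek2-/- among them, beside 1430 genes or 5.34%. The number of genes called in this genotype contrast was 573 to 1794 when 1 library was left out. It was 573, 675 and 716 without WT nonIR 4, 2 and 3, and 807 without Chek2-/- nonIR 1. The interaction of genotype and radiation was called for Vcl alone, beside 277 genes or 1.03%. These shares, from 0 to 2 of 30, are near the background and say nothing particular of the list.

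Vcl, ENSMUSG00000021823, encodes vinculin, which links actin to the membrane at dense plaques and focal adhesions. In WT nonIR its level was 181, 173, 174, 172, 160 and 183 CPM in libraries 1 to 6, and in WT IR 207, 224, 206, 244, 221 and 235. All 6 irradiated WT libraries were above all 6 sham libraries. Its log2 fold change was 0.36 with a standard error of 0.065 and an edgeR adjusted p of 0.00137, and it was called in each of the 12 fits that left out 1 library of these groups. In Chek2-/- nonIR the level was 208 ± 15.7 CPM (SD, n = 6) and in Chek2-/- IR 203 ± 22.6, with ranges of 180 to 227 and 169 to 229 that overlap almost wholly. There the log2 fold change was −0.03 with an edgeR adjusted p of 1. In the single cells Vcl was not higher in smooth muscle barcodes of WT IR, as given above for each library, so the 2 kinds of data differ in direction for this gene.

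The remaining calls were weaker. The interaction for Vcl was −0.39 on the log2 scale with an edgeR adjusted p of 0.0329, and it was called in 10 of 24 fits that left out 1 library each, with adjusted p up to 0.0649. The fits that lost it left out WT nonIR 2, 3, 4 or 5, WT IR 2, 4 or 6, Chek2-/- nonIR 1, 2, 4 or 6, or Chek2-/- IR 2, 3 or 5, and the log2 value ranged from −0.45 to −0.35. Vcl at nonIR was higher in Chek2-/- by 0.26 with an edgeR adjusted p of 0.0241, which left the call in 6 of 12 such fits, without WT nonIR 2 (0.056), 3 (0.0532) or 4 (0.0601) or without Chek2-/- nonIR 1 (0.0521), 4 (0.0514) or 6 (0.0543).

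The genes of the rule varied widely between whole ovaries of 1 group. Myh11 was at 60.6 ± 19.2 CPM (SD, n = 6) in WT nonIR, 56.7 ± 21.4 in WT IR, 46.2 ± 14.3 in Chek2-/- nonIR and 36.2 ± 6.88 in Chek2-/- IR, and the ranges of all 4 groups overlapped. Actg2 was at 12.3 ± 4.97, 13.1 ± 10.3, 7.09 ± 4.24 and 4.46 ± 1.76, with 31.5 in WT IR library 3 and 4.48 in WT IR library 4. That library 3 was the highest of its group in Myh11, Cnn1, Lmod1, Tagln and Acta2 as well. Cnn1 was at 7.15 ± 2.21, 6.03 ± 3.45, 4.33 ± 1.48 and 3.23 ± 1.24, and Tagln at 36.1 ± 9.79, 34.5 ± 16.3, 22.6 ± 7.05 and 15.2 ± 5.92. Acta2 was at 97.7 ± 12.7, 102 ± 35.7, 73.2 ± 21.7 and 54.4 ± 15.9. None of these contrasts was called, and at this spread a change of the size seen could not be told from variation between ovaries. Across genotypes at nonIR 24 of the 30 genes were lower in Chek2-/- and 6 higher, with a median log2 fold change of −0.14 beside 0.01 for all genes. Markers of other cells moved in the same contrast. Erythroid markers had a median log2 fold change of 2.10, with 0 of 5 called and 5 at an unadjusted p under 0.05, and oviduct epithelium markers of 1.77, with 1 of 5 called, Ovgp1, beside 3.12% of genes called higher. Fibroblast markers had a median of −0.10 with 2 of 5 called lower, Col1a1 and Mfap4, beside 2.22% called lower, and granulosa markers −0.36 with 0 of 5 called. Theca and steroid markers had a median of 0.43 with 1 of 6 called higher, beside the same 3.12%. Of the 12 fits that left out 1 library of these groups, 11 called Ovgp1, all but the one without WT nonIR 4 (edgeR adjusted p 0.051). Col1a1 was called in 8, with adjusted p up to 0.0694 by edgeR without WT nonIR 2 or 3 or Chek2-/- nonIR 1 or 4. Mfap4 was called in 6, with adjusted p up to 0.0919 by edgeR without WT nonIR 2, 3 or 4 or Chek2-/- nonIR 1, 2 or 4. Oviduct markers also had medians of −2.35 for radiation in Chek2-/- and −4.16 for the interaction, and the part of such tissue in these differences was not tested. For the contractile list alone the median was −0.38, with 0 of 13 called and 5 of 13 at an unadjusted p under 0.05, and log2 fold changes of −0.83 for Lmod1 (edgeR adjusted p 0.144), −0.73 for Cnn1 (0.173), −0.68 for Tagln (0.158) and −0.39 for Myh11 (0.33). Of all 26790 genes 5776 had an unadjusted p under 0.05 by edgeR in this contrast.

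**Figure D5:**
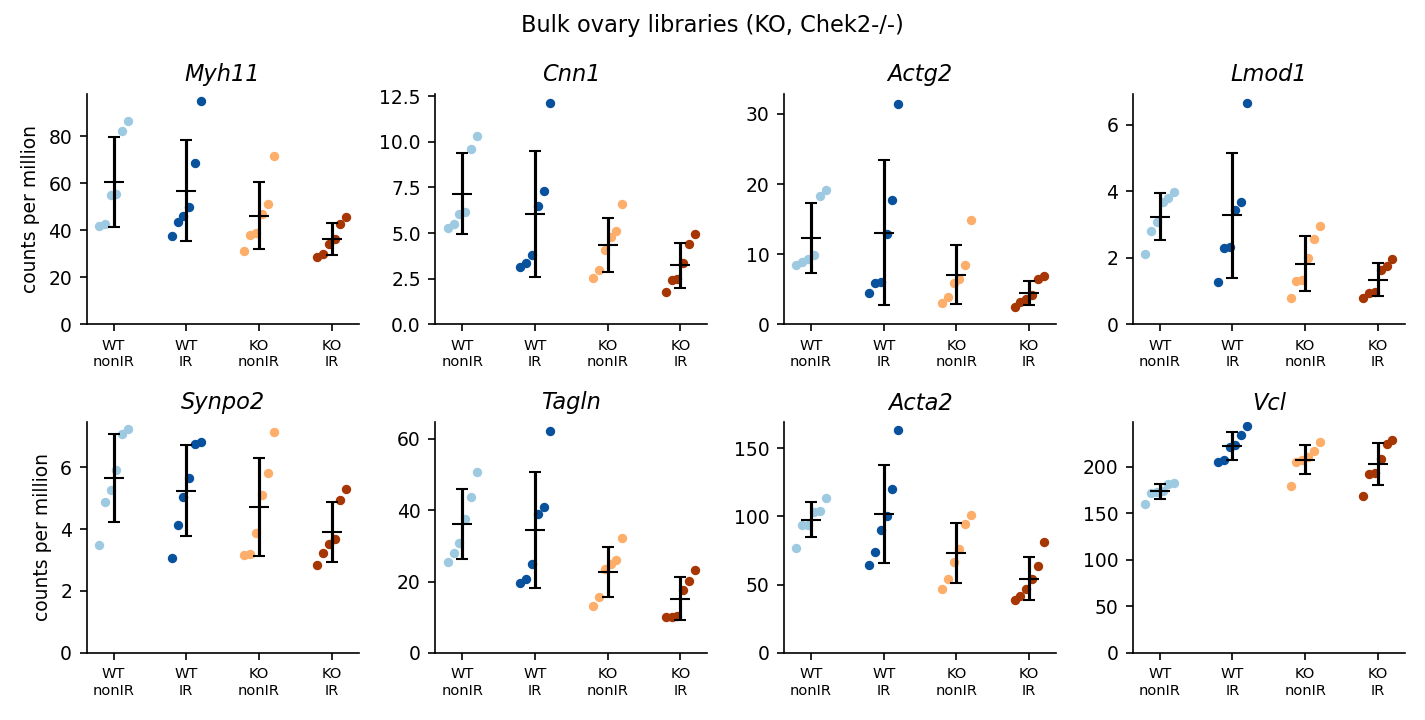
CPM of 8 smooth muscle genes in 24 whole-ovary libraries, 6 per group, each point 1 library, with the group mean and SD as bars (KO, Chek2-/-). For Vcl the 6 WT IR points lie above the 6 WT nonIR points, and for the other genes the groups overlap between nonIR and IR.

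The other parts of the contractile pathway gave few calls in whole ovaries. Srf, ENSMUSG00000015605, rose with radiation in WT from 67.4 ± 1.99 to 81.1 ± 5.25 CPM (SD, n = 6), with ranges of 63.8 to 69.7 and 74.8 to 88.2, a log2 fold change of 0.27 and an edgeR adjusted p of 0.000206. The Chek2-/- groups had 62.7 ± 1.73 and 63.4 ± 3.20 CPM, with an interaction of −0.25 on the log2 scale and an edgeR adjusted p of 0.0326. It was the 1 of 12 regulators called for WT IR, beside 1.53% of genes called higher. In the same contrast 1 of 20 receptor genes, 1 of 12 visceral smooth muscle genes and 1 of 5 pericyte markers were called higher. Of 11 vascular mural genes 1 was called higher and 1 lower, and of 10 Notch pathway genes 1 was called lower. Of all 26790 genes 409 were called higher and 237 lower, and calls of single genes are no result about these lists. Its coactivator Mkl1, also called Mrtfa, was lower in Chek2-/- nonIR (55.2 ± 2.80 CPM) than in WT nonIR (67.8 ± 5.96), with −0.30 on the log2 scale and an edgeR adjusted p of 0.00931. Srf in WT and Mkl1 at nonIR were each called in all 12 fits that left out 1 library. The interaction for Srf was called in 17 of 24, with adjusted p up to 0.0641 by edgeR, and was lost without WT nonIR 1 or 6, WT IR 3, Chek2-/- nonIR 2, 3 or 5, or Chek2-/- IR 5. In the smooth muscle barcodes Srf was at 52.2, 52.4, 43.6 and 53.1 CPM, with no difference between the WT libraries.

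Between the genotypes at nonIR, 2 of 15 contraction signalling genes, 1 of 12 ion channel genes and 3 of 11 vascular mural genes were called, all lower in Chek2-/-, beside 594 of 26790 genes, 2.22%, called lower. Mrvi1, also called Irag1, which relays nitric oxide signals to calcium stores, was at 50.3 ± 8.42 CPM (SD, n = 6) in WT nonIR and 28.9 ± 5.202 in Chek2-/- nonIR, with ranges of 37.8 to 61.2 and 21.6 to 34.9 that do not overlap. Its log2 fold change was −0.80 with an edgeR adjusted p of 0.00379. Ppp1r12b, a myosin phosphatase subunit, had −0.31 (adjusted p 0.0238 by edgeR) and Cacna1c, the L-type calcium channel, −0.35 (0.0164). Of the mural genes, Cspg4 had −0.59 (edgeR adjusted p 0.0205), Notch3 −0.47 (0.0268) and Gja4 −0.43 (0.0411). When 1 library was left out, Mrvi1 and Cacna1c were called in all 12 fits and Ppp1r12b in 10, lost without WT nonIR 3 (edgeR adjusted p 0.0637) or 4 (0.0584). Cspg4 was called in 8, with adjusted p up to 0.0645 by edgeR without WT nonIR 2, 3 or 4 or Chek2-/- nonIR 1, and Notch3 in 8, with up to 0.0774 without WT nonIR 2 or 3 or Chek2-/- nonIR 1 or 4. Gja4 was called in 4, and was lost without WT nonIR 1, 2, 3 or 4 or Chek2-/- nonIR 1, 2, 5 or 6, with adjusted p up to 0.108 by edgeR. The mural genes were barely present in the smooth muscle barcodes, and Gja4 was at 287 CPM in the oocyte-marker members, so these calls in whole tissue cannot be assigned to smooth muscle. Canonical p53 targets passed the test for 19 of 27 genes in WT, beside 1.53% of all genes called higher, and for 2 of 27 in Chek2-/-, beside 0.0112%. In the interaction 18 of 27 passed, all lower in Chek2-/-, beside 0.694% called lower.

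Myh11 was also compared across the 24 whole-ovary libraries with a gene of the oviduct, of pericytes and of the stroma, the 3 relations computed. With the oviduct glycoprotein gene Ovgp1, Pearson's r was −0.374 (permutation p 0.0726, adjusted 0.18) and Spearman's rho −0.255 (permutation p 0.228, adjusted 0.395). Without WT IR 3 and WT nonIR 6, the libraries farthest from the median of Myh11, r was −0.143. The size of the value, though not its sign, thus depended on those samples. With Rgs5, r was −0.00697 (permutation p 0.974) and rho 0.02 (permutation p 0.926). With the stromal proteoglycan gene Dcn, r was 0.326 (permutation p 0.12, adjusted 0.18) and rho 0.237 (permutation p 0.263, adjusted 0.395), and without those samples r was 0.351. After removal of group means r was −0.369, 0.248 and 0.175 in the same order. Within the 4 groups of 6, r ran from −0.688 to −0.326 for Ovgp1, from −0.0581 to 0.526 for Rgs5 and from −0.32 to 0.604 for Dcn. No relation passed the threshold.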

How the data were processed

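The members, gene lists and comparisons were chosen with earlier results of these data known. Single-cell libraries (10x Genomics) were aligned by the authors to mm10 with Cell Ranger, and the deposited matrices hold whole-number UMI counts per gene and barcode, without the authors' doublet removal. Whole-ovary reads were quantified by the authors with Salmon (1.3.0 in the submitters' processing notes), and the deposited values are estimated counts per gene, with totals of 17824920 to 32605519 per library, which were rounded to whole numbers. Barcodes were classed in Python 3.11.15 with scanpy 1.11.5. UMIs were summed per library and class, 0.5 was added to each sum for a ratio, genes needed 50 UMIs over both libraries, and at least 1.5-fold either way counted as past the fold. Intervals are exact (Clopper-Pearson for shares, conditional binomial for ratios). Scrublet marked 389 to 566 kept barcodes per library, and 0 were removed. Genes with at least 10 counts over 24 libraries were fitted in edgeR 4.0.16 (R 4.3.3) with TMM scaling (also behind the printed CPM) and 1 coefficient per group, called at an adjusted p of at most 0.05. Per the methods, each whole-ovary sample is RNA of a pair of ovaries, with 6 females per group, so p-values measure the spread between these samples, and counts of any 2 replicates differed beyond sampling noise (chi-square per degree of freedom at least 5.85). The steps were tested on simulated data. Genes named are the rule and marker genes, the most counted members of each list, the extreme ratios, and p53 targets with enough UMIs. Some of the list genes called in whole ovaries are named as well. Alternatives were other rule limits, UMI minimums, TMM scaling, thinning, DESeq2 1.42.0, filters, a replicate block and leaving out each library. Subsets without oocyte-marker, Des-high or granulosa-marker barcodes and the core were added after seeing the data. Some results that rest on withheld genes are not reported here.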

Additional observations from a re-analysis of the deposited data

Results flagged for a closer look

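Vcl was singled out in whole ovaries because its response to radiation differed between the genotypes by the interaction test. The interaction term had a log2 value of −0.39 with a standard error of 0.0923 and an adjusted p of 0.0329 by edgeR, from a log2 fold change of 0.36 in WT, where all 6 IR libraries were above all 6 nonIR libraries, and −0.03 in Chek2-/-. The call was kept in 10 of 24 fits that left out 1 library. Of 40 groups of 6 libraries checked for a single far library over 10 genes, 0 had one, where chance alone gives about 1 in 20 groups.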

How the results depend on the processing

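The shares of barcodes that met the rule (4.231%, 3.267%, 3.278% and 3.576% in WT nonIR, WT IR, Chek2-/- nonIR and Chek2-/- IR) moved to 3.114%, 2.349%, 2.365% and 2.464% when 4 rule genes were required, to 3.455%, 2.755%, 2.717% and 2.966% when none of the 5 pericyte genes was allowed, and to 2.546%, 1.94%, 1.746% and 2.02% after thinning. Without oocyte-marker barcodes WT nonIR was 3.693%, and core barcodes alone gave 2.928%, 2.716%, 2.805% and 2.955%. The 1696 genes past the fold in WT became 4673 with none of the pericyte genes allowed, 714 without oocyte-marker barcodes and 568 in core barcodes. The 1020 in Chek2-/- became 2147 with 4 rule genes, 659 and 1626 with minimums of 100 and 20 UMIs, and 619 in core barcodes. Of the 4 contractile genes at least 1.5-fold lower in the smooth muscle barcodes of WT IR, 0 were left without Des-high barcodes, 3 without granulosa-marker barcodes and 0 without both. The causes were not tested. The median log2 ratio of p53 targets was 0.8525 to 1.224 in WT and −0.0349 to 0.2326 in Chek2-/- over the alternatives.

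In whole ovaries, requiring also 2-fold left 0, 0 and 0 of the 30 genes for WT IR, genotype at nonIR and the interaction, and no filter on low counts left 1 for genotype. Both settings can also change the number of genes called in all, so these counts say nothing particular of the list. Leaving out each library gave 1 to 1 genes for WT IR, 0 to 0 for Chek2-/- IR, 0 to 2 for genotype and 0 to 1 for the interaction. Over all genes these fits called 516 to 657, 2 to 4, 573 to 1794 and 221 to 323 in the same order. Replicate numbers were not used to pair the libraries in the main fit. Of 36 same-numbered pairs 17 correlated over 0.1, the highest at 0.796 for number 6, and 11 of 24 libraries matched their own number best. Whether the numbers mark a pairing was not tested, and the main fit would leave such a pairing out. With a replicate block 1, 0, 3 and 1 of the 30 genes were called for WT IR, Chek2-/- IR, genotype and the interaction, and DESeq2 called 1, 0, 3 and 1. The main fit called 646, 3, 1430 and 277 of 26790 genes in all for these contrasts. The number called in all can change with the setting, so the list counts are no result about the list. The 1 pooled library per single-cell condition, and 1265 barcodes in all, limit every single-cell value.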
